A study of Gallus gallus with 6 samples.

Results

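The most abundant transcripts of the control neural tube are 250 of the 17108 genes in the count table, chosen by their level in the control: they have the highest mean CPM (the count of a gene per 1000000 counts of its library) over both pCIG libraries. RNA-Seq was made on GFP-sorted cells of the trunk neural tube of chicken embryos, electroporated at stage HH 11 and dissected 18 h later. The control cells received the vector pCIG (2 µg/µL), which expresses a nuclear GFP. MEK1ca cells received pCIG-MEK1ca, coding for a constitutively active form of the kinase MEK1, with pCIG (1 µg/µL of each). MEK1ca + HOXB8 cells received pCIG-MEK1ca with pCIG-HOXB8 (1 µg/µL of each). Both of these vectors carry the same GFP. The paper gives co-transfection in this tissue as nearly total and assumes that all GFP-positive cells of this condition expressed both MEK1ca and HOXB8. Dying cells were removed during sorting. Each of the 3 conditions has 2 libraries, from independent RNA samples of pooled embryos, so that a value is a mean over the transfected, GFP-positive cells of several embryos, and fewer cells of a type cannot be told apart from less RNA per cell. All cells carried a pCIG vector and GFP. The control received 1 vector, while MEK1ca and MEK1ca + HOXB8 each received a mix of 2. HOXB8 alone is not analysed here.

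A small part of the genes of a cell gives a large part of its messenger RNA. In dividing embryonic cells these are in general the messages for ribosomes and translation, the cytoskeleton, chromatin and energy metabolism, which nearly all cells need. MEK1 phosphorylates and activates the kinase ERK, which acts on transcription in the nucleus, and HOXB8 is a homeodomain transcription factor of the HOX family, which gives trunk cells their position along the body axis. The count table names its genes by Ensembl identifier only, and 0 of the 17108 identifiers were found in the RefSeq gene table used here. The genes are therefore given without names or functions, by their galGal4 position. Whether they belong to the classes just named was not tested, nor could the neural tube label be checked against markers.

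The libraries held between 63637195 and 90460770 counts. All 250 genes were deeply covered, with at least 16669 counts in every library, and all passed the filter on low counts, which 13582 genes passed in all. Replicates of these 250 genes differed by a median of 0.07 for pCIG, 0.06 for MEK1ca and 0.12 for MEK1ca + HOXB8 on the log2 scale, beside 0.14, 0.14 and 0.17 for all genes tested with a count in both replicates. The MEK1ca + HOXB8 libraries were the 2 deepest, with 14635 and 14693 genes with a count, while the other 4 libraries had 14054 to 14095. The labels mark the 4 pCIG and MEK1ca libraries as a reanalysis, and the paper states that their results were published before. The MEK1ca + HOXB8 libraries carry no such mark. No date or sequencing run was given for the libraries. A difference between MEK1ca + HOXB8 and the others in library preparation therefore cannot be told apart from the condition. MEK1ca replicate 2 stood apart in another way. Even numbers made 63.2% of its counts for the 250 genes and 99.4% of its counts from 1 to 10, where every other library had at most 54.8% and 57.0%. How many calls held and how the described genes changed on addition of HOXB8 are also given without it.

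The 37 genes of the mitochondrial chromosome and 1192 genes on linkage groups and unplaced contigs were listed at 0 in all 6 libraries, so that none could be among the 250 genes. Mitochondrial messages are abundant in most cells, and the list covers the nuclear transcripts on the numbered chromosomes and Z. Chromosomes 1 to 5 held 106 of the 250 genes (42.4%, beside 44.6% of the genes tested). The smaller chromosomes 11 to 28 held 98 (39.2%, beside 33.8%), Z held 8 and W none. The 250 genes had a median exonic length of 2046 bases, from 370 to 13969, and a median of 10 exon segments. None had a single exon, while 9.92% of all genes with a count and 6.01% of the genes tested did. Exons of 15 genes (6.0%, beside 6.99% of the genes tested) overlapped those of another gene, on the same strand for 6 and on the other strand for 9. Reads of such pairs may have been split or left uncounted. The strand setting of the counting was not given in the sources used here.

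Of all counts, the 250 genes took 26.9 and 27.6% in the pCIG libraries, 26.3 and 26.4% in those of MEK1ca, and 27.1 and 26.6% in those of MEK1ca + HOXB8. In all conditions these genes thus took more than 26% of the counts, which grow with the length of a transcript. With counts divided by exonic length, their share was 32.3 to 33.5% per library. The pCIG share chose the genes and is not compared. The means were 26.3% ± 0.0637 in MEK1ca and 26.9% ± 0.377 in MEK1ca + HOXB8 (SD, n = 2), and the shares of both MEK1ca + HOXB8 libraries lay above those of both MEK1ca libraries. The difference of 0.550 percentage points had p = 0.333 in an exact two-sided permutation test, which is the smallest p that 2 libraries against 2 can give. The 10 most abundant genes took 4.30 to 4.53% of all counts, the 50 most abundant 11 to 11.5% and the 100 most abundant 16.3 to 16.9%.

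The most abundant transcript came from chromosome 3, 80913076 to 80916878, a gene of 7 exon segments and 1684 exonic bases. Its CPM was 10891 and 11603 in pCIG, 11497 and 11225 with MEK1ca, and 11125 and 10653 with MEK1ca + HOXB8. It took more than 1% of all counts in every library, far above the gene of the next rank. The latter, on chromosome 14 at 4169150 to 4172343, had 4727 and 5190 CPM in pCIG, 5034 and 5393 with MEK1ca, and 4849 and 5033 with MEK1ca + HOXB8, and it overlaps an exon of another gene on its own strand. The gene of rank 3, on chromosome 21 at 3215099 to 3227491, had 4572 and 4474 CPM in pCIG, 3795 and 3541 with MEK1ca, and 4173 and 4097 with MEK1ca + HOXB8. Its MEK1ca libraries were the lowest, and MEK1ca + HOXB8 lay between the other conditions. The next 7 genes had mean CPM from 2858 to 4184 in pCIG and lay on chromosomes 5, 1, 28, 9, 24, 10 and 13. At the lower end, the last 2 genes inside the list had mean CPM of 542.0 and 541.3, and the first 2 outside it had 541.0 and 539.5. The limit of the list therefore separates no distinct class of genes. CPM does not take gene length into account. By TPM (counts divided by exonic length, scaled to the same total in each library), 168 of the 250 genes (67.2%) were also among the 250 highest in pCIG.

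**Figure D1:**
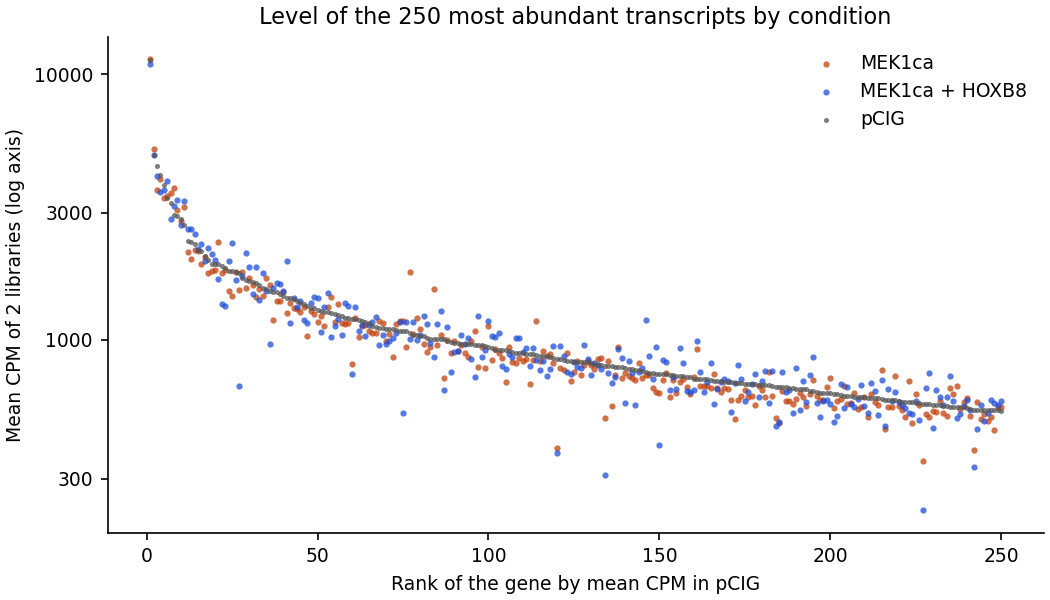
Mean CPM of 2 libraries (y axis, log scale) of each of the 250 genes against its rank by mean CPM in pCIG (x axis), with a point for pCIG (grey), MEK1ca (orange) and MEK1ca + HOXB8 (blue). The pCIG points fall steadily because they set the order. Most points of the other conditions lie close to them, and a few lie far below, the lowest at 228 CPM in MEK1ca + HOXB8.

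Most of the 250 genes stayed among the most abundant transcripts of the other conditions, which is a description, since pCIG chose them. Agreement of the ranks themselves was not measured. Of the 250 genes, 230 (92.0%) were among the 250 highest in MEK1ca by mean CPM, 232 (92.8%) in MEK1ca + HOXB8, and 221 in both. The replicates of a condition give only a rough scale for these counts, since they are single libraries and not means. The 250 highest of one replicate shared 242 genes with the other for pCIG, 242 for MEK1ca and 234 for MEK1ca + HOXB8. The 250 highest of MEK1ca and of MEK1ca + HOXB8, taken by their means, shared 225. Taken alone, MEK1ca replicate 1 had 228 of the 250 genes among its 250 highest, and replicate 2 had 231. Of the 20 highest genes in pCIG, 18 were among the 20 highest in MEK1ca, and 18 in MEK1ca + HOXB8. By mean CPM, no member fell below rank 483 in MEK1ca and 895 in MEK1ca + HOXB8. In single libraries the lowest ranks were 767 (MEK1ca replicate 1) and 1045 (MEK1ca + HOXB8 replicate 1). Genes that came in from below were mostly near the limit: the 20 genes that entered the 250 highest in MEK1ca had a median pCIG rank of 302, and the lowest came from rank 1572. The 18 genes that entered in MEK1ca + HOXB8 came from ranks 255 to 349.

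Addition of HOXB8 to MEK1ca is the comparison in which neither side is a library of the choice. The pCIG libraries still entered its fit, through the filter, the scaling and the spread. In a fit of the 4 libraries compared alone, the median log2 fold change of the 250 genes was -0.05, beside 0.01 for all genes tested. The differences of the 250 genes were small. Their log2 fold changes had an SD of 0.27, beside 1.08 for all genes tested, and 147 genes (58.8%) had a change under 0.2 in size, beside 34.9% of all. Small changes were not particular to the 250 genes, since the next 250 by abundance had an SD of 0.29, with 48.8% under 0.2 in size and 1.60% of 2-fold or more. A change of 2-fold or more was seen for 2 genes (0.800%), beside 15.8% of all genes tested, which include genes of low counts with larger errors (median SE of the log2 fold change 0.08 for the 250 genes and 0.14 for all). At an adjusted p of 0.01 or less (edgeR quasi-likelihood test, Benjamini-Hochberg adjustment over 13582 genes), 37 of the 250 genes (14.8%) were called, 8 higher (3.20%) and 29 lower (11.6%) in MEK1ca + HOXB8. In all genes tested the share was 16.7%, with 8.74% higher and 7.99% lower. The count of calls among the most abundant transcripts was thus near that of all genes, and the calls were mostly decreases.

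This balance depends on how the libraries are scaled. TMM takes the bulk of the genes as unchanged, and lowered MEK1ca + HOXB8 (factors 1.04 and 1.05) against MEK1ca (0.964 and 0.979). A log2 fold change against MEK1ca is therefore about 0.1 lower than the log2 ratio of the CPM printed beside it. With library size alone 22 of the 250 genes were higher and 19 lower (11.4% and 4.76% of all genes tested), and higher genes made 53.7% of the calls against 21.6% with TMM. With loess offsets, which take out a slope with abundance, 19 were higher and 19 lower, so that 50.0% of the calls were higher (in all genes tested, 6.74% were higher and 5.81% lower). The 250 genes were chosen by abundance, so that these offsets also remove part of any change shared by abundant genes. The median log2 fold change of the 250 genes was -0.04 with TMM, 0.07 with library size alone and 0.06 with loess, while the median of all genes tested was 0.02, 0.12 and -0.01. Relative to all genes, the median of the 250 genes was thus -0.06 with TMM and 0.07 with loess. It was also -0.06 with library size alone, which differs from TMM only by a factor per library and so could hardly change it. The excess of decreases was not particular to the 250 genes either. Among the next 250 genes by the same measure, 3 were higher and 60 lower (25.2% called), among the 500 after them 11 and 94 (21.0%), and among the following 1000 genes 25 and 180 (20.5%). The number of calls also rested on single libraries: 19 genes (7.60%, beside 8.46% of all genes) were called without MEK1ca replicate 1 and 20 (8.00%, beside 11.2%) without MEK1ca replicate 2, of which 17 and 18 were lower. Of the 37 genes called with all libraries, 20 were called without MEK1ca replicate 2, all 37 kept their sign, and no log2 fold change moved by more than 0.21. DESeq2 called 63 genes (25.2%, beside 25.0%), 13 higher and 50 lower (12.3% and 12.8% of all genes). With a threshold of 0.05 edgeR called 82 genes (32.8%, beside 32.2%).

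**Figure D2:**
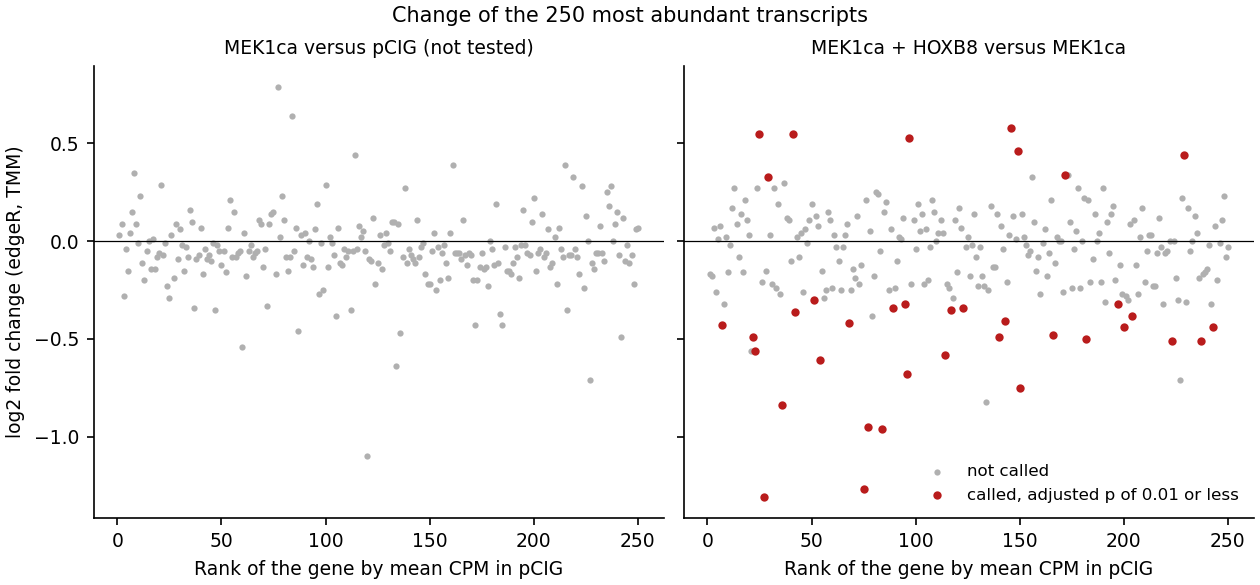
Log2 fold change from edgeR with TMM (y axis) of each of the 250 genes against its rank by mean CPM in pCIG (x axis), for MEK1ca versus pCIG on the left, where no test is shown because pCIG chose the genes, and for MEK1ca + HOXB8 versus MEK1ca on the right, with the 37 called genes in red. Most points lie within 0.5 of 0, and more red points lie below 0 (29) than above (8).

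The largest decrease on addition of HOXB8 was that of ENSGALG00000004361, on the plus strand of chromosome 10 at 7329784 to 7416677, a long gene of 20 exon segments and 9297 exonic bases that was ranked 27 in pCIG. Its CPM was 2031 and 1540 in pCIG, 1670 and 1418 with MEK1ca, and 618 and 726 with MEK1ca + HOXB8. The pCIG and MEK1ca libraries overlapped, and both MEK1ca + HOXB8 libraries were far below all others. The log2 fold change against MEK1ca was -1.31 ± 0.14 (SE), a fold of 0.404, with an adjusted p of 2.65e-04 in edgeR. The call was lost without MEK1ca + HOXB8 replicate 1 (-1.20, adjusted p = 0.0283 in edgeR) and without replicate 2 (-1.43, adjusted p = 0.0143 in edgeR), with the change itself nearly as large. Without MEK1ca replicate 2 it was -1.44 (adjusted p = 4.31e-05 in edgeR).

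The other gene with a change of 2-fold or more lay on chromosome 25 at 483723 to 490804 (5124 exonic bases), where an exon overlaps a gene of the other strand. It had 1111 and 1045 CPM in pCIG, 1146 and 1214 with MEK1ca, and 452 and 604 with MEK1ca + HOXB8. Control and MEK1ca lay close to each other and MEK1ca + HOXB8 was lower than both, with a log2 fold change against MEK1ca of -1.27 ± 0.12 (SE) and an adjusted p of 8.14e-05 in edgeR. A gene of chromosome 3, at 30485202 to 30667355 (5991 exonic bases in 35 segments), also overlaps an exon of a gene of the other strand. Its CPM was 753 and 731 in pCIG, 643 and 615 with MEK1ca, and 378 and 428 with MEK1ca + HOXB8, and its log2 fold change against MEK1ca was -0.75 ± 0.08. Here both MEK1ca libraries already lay below both pCIG libraries, unlike in the gene of chromosome 25. Both genes had the libraries of MEK1ca + HOXB8 below all others, and their log2 fold changes were -0.80 (chromosome 3) and -1.24 (chromosome 25) without MEK1ca replicate 2.

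Another 3 decreases concerned the genes that edgeR also gave as higher in MEK1ca versus pCIG, a comparison that is a description only. Their MEK1ca libraries were above those of both other conditions. This order was not limited to them, and other called genes such as that ranked 7 had it too. ENSGALG00000001000, on the minus strand of chromosome 17 at 9591907 to 9595959 (9 exon segments, 2324 exonic bases), had 1088 and 1028 CPM in pCIG, 2056 and 1555 with MEK1ca, and 1018 and 997 with MEK1ca + HOXB8. The MEK1ca libraries were the highest, and MEK1ca + HOXB8 lay just under pCIG. The log2 fold change on addition of HOXB8 was -0.95 ± 0.12 (SE), with an adjusted p of 4.51e-04 in edgeR, which passed 0.01 no longer without MEK1ca + HOXB8 replicate 1 (-0.97, adjusted p = 0.0321) or replicate 2 (-0.94, adjusted p = 0.0285), with the change as large. A gene of chromosome 1 at 54869423 to 54879269 had 1059 and 955 CPM in pCIG, 1683 and 1419 with MEK1ca, and 796 and 921 with MEK1ca + HOXB8, a log2 fold change against MEK1ca of -0.96 ± 0.10. A gene of chromosome 5 at 50119114 to 50126125 had 846 and 903 CPM in pCIG, 1212 and 1133 with MEK1ca, and 812 and 873 with MEK1ca + HOXB8, a log2 fold change of -0.58 ± 0.08. In all of them the 2 MEK1ca libraries lay above the other 4. Without MEK1ca replicate 2 the log2 fold changes were -1.15 (chromosome 17), -1.10 (chromosome 1) and -0.65 (chromosome 5). Because both comparisons share the MEK1ca libraries, an error in MEK1ca alone would move them in opposite directions.

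The gene next to the latter on chromosome 5, at 50128409 to 50229625 on the other strand, also decreased. It had 1468 and 1570 CPM in pCIG, 1395 and 1812 with MEK1ca, and 963 and 968 with MEK1ca + HOXB8, and its log2 fold change against MEK1ca was -0.84 ± 0.11, and -0.66 without MEK1ca replicate 2. Its MEK1ca libraries lay on both sides of pCIG, unlike those of its neighbour. The remaining 22 decreases had log2 fold changes from -0.68 to -0.30. They included the gene ranked 7, on chromosome 9 at 14750404 to 14758732, which was the only call among the 10 most abundant. It had 3254 and 3286 CPM in pCIG, 3512 and 3636 with MEK1ca, and 2922 and 2795 with MEK1ca + HOXB8, and its log2 fold change against MEK1ca was -0.43 ± 0.07, and -0.42 without MEK1ca replicate 2.

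With TMM, increases on addition of HOXB8 were fewer and smaller. The largest was that of ENSGALG00000002286, on the plus strand of chromosome 18 at 4681029 to 4683567 (4 exon segments, 1902 exonic bases). It had 720 and 796 CPM in pCIG, 689 and 780 with MEK1ca, and 1240 and 1126 with MEK1ca + HOXB8. The pCIG and MEK1ca libraries overlapped and both MEK1ca + HOXB8 libraries were above them. The log2 fold change against MEK1ca was 0.58 ± 0.09 (SE), a fold of 1.5, with an adjusted p of 8.88e-04 in edgeR. Without MEK1ca replicate 1 it was 0.50 (adjusted p = 0.0106 in edgeR), and without replicate 2 it was 0.65 (adjusted p = 0.00195 in edgeR). A pair of neighbouring genes on the plus strand of chromosome 7 increased together. The one at 21704678 to 21707280, ranked 25 in pCIG, had 1705 and 1929 CPM in pCIG, 1495 and 1434 with MEK1ca, and 2221 and 2386 with MEK1ca + HOXB8, a log2 fold change of 0.55 ± 0.08 against MEK1ca. The one at 21697266 to 21702129 had 905 and 1012 CPM in pCIG, 796 and 776 with MEK1ca, and 1167 and 1278 with MEK1ca + HOXB8, a log2 fold change of 0.53 ± 0.08. It overlaps an exon of a gene on the other strand. In both genes MEK1ca was lowest and MEK1ca + HOXB8 highest, with no overlap between conditions. Without MEK1ca replicate 2 their log2 fold changes were 0.50 and 0.49. Whether the pair are near-identical copies that share reads was not tested. The other 5 increases lay on chromosomes 11, 2, 5, 8 and 22, with log2 fold changes from 0.33 to 0.55.

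**Figure D3:**
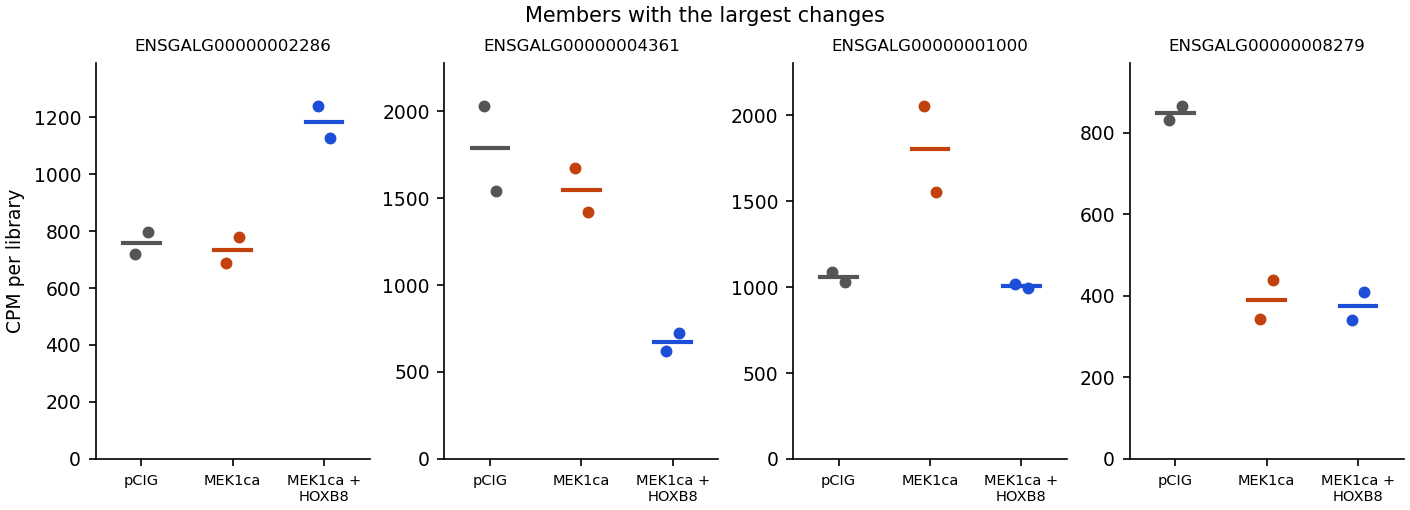
CPM per library (y axis, from 0) of the 4 genes given by identifier, with a point for each library and a line at the mean of the 2 libraries of a condition (x axis). MEK1ca + HOXB8 was highest for ENSGALG00000002286 (1240 and 1126) and lowest for ENSGALG00000004361 (618 and 726), MEK1ca was highest for ENSGALG00000001000 (2056 and 1555), and pCIG was highest for ENSGALG00000008279 (830 and 866).

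In MEK1ca versus pCIG, the pCIG libraries that chose the 250 genes are also the control, so that the values are a description. edgeR gave 3 genes higher and 7 lower in MEK1ca at the same threshold (4.0%). In all genes tested the share was 6.16%, with 4.26% higher and 1.90% lower, and nothing is read from this count. The log2 fold changes had a median of -0.06 and an SD of 0.19, and 203 genes (81.2%) had a change under 0.2 in size, beside 48.4% of all genes. None of the 50 most abundant genes was among the 10. The gene furthest below pCIG was ENSGALG00000008279, on the plus strand of chromosome 12 at 18261478 to 18278207 (2 exon segments, 2916 exonic bases). It had 830 and 866 CPM in pCIG, 342 and 438 with MEK1ca, and 341 and 409 with MEK1ca + HOXB8. Both conditions with MEK1ca were under all pCIG libraries and overlapped each other, and the log2 fold change on addition of HOXB8 was -0.16 ± 0.12 (SE), with an adjusted p of 0.329 in edgeR, and 0.01 without MEK1ca replicate 2. Among the 5 genes furthest below pCIG were also genes with a wide spread in MEK1ca. One on chromosome 4, at 82973161 to 83026374, had 559 and 591 CPM in pCIG, 262 and 435 with MEK1ca, and 203 and 254 with MEK1ca + HOXB8. Another on chromosome 1, at 22669170 to 22806015, had 793 and 806 CPM in pCIG, 412 and 602 with MEK1ca, and 263 and 356 with MEK1ca + HOXB8. In both genes the MEK1ca libraries lay below pCIG and were much further apart than the pCIG libraries. Neither gene was among the 7 given as lower, and neither was called on addition of HOXB8. The other 2 of the 5 were among the 7. That on chromosome 5, at 16213710 to 16220057, had 1135 and 1259 CPM in pCIG and 809 and 818 with MEK1ca. With MEK1ca + HOXB8 it had 704 and 778. That on chromosome 10, at 1319370 to 1515182, had 543 and 547 CPM in pCIG and 369 and 399 with MEK1ca. With MEK1ca + HOXB8 it had 310 and 352. On addition of HOXB8, 6 of the 7 genes were not called and 1 was called higher. The gene furthest above pCIG was ENSGALG00000001000, given above (log2 fold change 0.79 ± 0.12).

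For a choice that is independent of the control, the 250 highest genes of a single pCIG library were compared with the other pCIG library as the only control, its spread taken from the fit. Chosen in replicate 1, 0 genes were higher and 2 lower in MEK1ca (0.800%, beside 3.17% of all genes tested). Chosen in replicate 2, 0 were higher and 1 lower (0.400%, beside 2.56%). Against pCIG, MEK1ca + HOXB8 had 0 higher and 15 lower (6.0%, beside 5.99%) for the choice in replicate 1, and 2 higher and 8 lower (4.0%, beside 5.05%) for replicate 2. With all libraries, 2 of the 250 genes were higher and 29 lower in MEK1ca + HOXB8 than in pCIG (12.4%). In all genes tested the share was 14.8%, with 8.91% higher and 5.90% lower, and this too is a description. The split again moved with the scaling. With library size alone 12 were higher and 21 lower (36.4% higher, against 6.45% with TMM), beside 10.6% and 3.66% of all genes tested, and with loess 11 were higher and 18 lower (37.9% higher), beside 7.02% and 4.05%. For MEK1ca versus pCIG, 3 were higher and 7 lower with library size alone (30.0% higher, as with TMM), beside 3.97% and 1.86%, and 5 and 7 with loess (41.7% higher), beside 4.22% and 1.74%. With both pCIG libraries, the counts for MEK1ca under other rules of calling were 16 genes by DESeq2 (6.4%, beside 11.4%) and 23 by edgeR with a threshold of 0.05 (9.20%, beside 12.8%). For MEK1ca + HOXB8 versus pCIG they gave 53 genes (21.2%, beside 22.8%) and 78 genes (31.2%, beside 29.3%). In all, 199 of the 250 genes (79.6%) were called in none of the 3 comparisons, beside 75.4% of all genes tested, and 116 had log2 fold changes under 0.2 in all 3. These counts include the comparisons with pCIG, which chose the genes, so that they are a description and nothing is read from them.

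The log2 fold change on addition of HOXB8 went down with the length of the gene, in classes of length chosen after the values were seen and given as a description. The 53 genes of up to 1000 exonic bases had a median log2 fold change of 0.12, and 44 of them lay above 0. The median was -0.02 for the 70 genes from 1000 to 2000 bases, -0.14 for the 69 genes from 2000 to 4000 bases, and -0.22 for the 58 longer ones, of which 8 lay above 0. The 29 genes called lower had a median of 4034 exonic bases and 15 exon segments, and the 8 called higher had 1541 bases and 4 segments. Spearman's rho between exonic length and log2 fold change was -0.54 over the 250 genes, which share the same libraries, and -0.13 over all 13582 genes tested. The order of the classes was the same with loess (0.20, 0.08, -0.04 and -0.13). With library size alone the medians were 0.22, 0.09, -0.03 and -0.11. That scaling shifts all genes by nearly the same amount, so that it could not change the order. The next 250 genes by abundance had medians of 0.12, -0.09, -0.17 and -0.22, so that the pattern was not particular to the 250 most abundant. Against pCIG, MEK1ca alone had medians of -0.09, -0.07, -0.04 and -0.01 in the same classes.

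The libraries of MEK1ca + HOXB8 differed in this pattern. For genes of up to 1000 bases, replicate 1 lay above the MEK1ca libraries by a median of 0.20 and 0.22, and replicate 2 by 0.01 and 0.01, so that the higher median of the short genes came from replicate 1, and the replicates of the condition differed by 0.18. For genes over 4000 bases, replicate 1 lay below the MEK1ca libraries by medians of -0.28 and -0.27, and replicate 2 by -0.15 and -0.17, so that the lower median of the long genes was seen in both. Of the counts of the 250 genes, those of up to 1000 bases took 19.1 and 19.3% in pCIG, 18.3 and 18.4% with MEK1ca, and 21.8 and 19.9% with MEK1ca + HOXB8. Those over 4000 bases took 19.9 and 19.2% in pCIG, 19.7 and 19.8% with MEK1ca, and 16.8 and 18.0% with MEK1ca + HOXB8. RNA quality and fragment length are not in the files, and their part in this pattern was not tested.

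**Figure D4:**
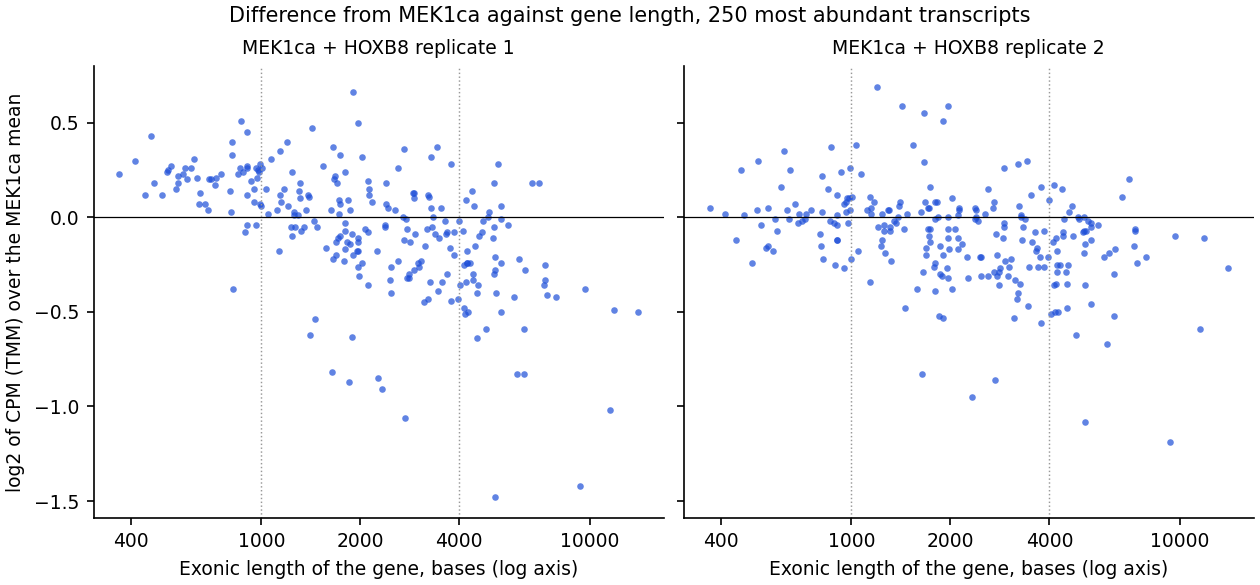
Log2 of the TMM-scaled CPM of each MEK1ca + HOXB8 library over the mean of the MEK1ca libraries (y axis) against exonic length in bases (x axis, log scale) for the 250 genes, with replicate 1 on the left and replicate 2 on the right and dotted lines at 1000 and 4000 bases. In replicate 1 most short genes lie above 0 and most long ones below, while in replicate 2 the short genes lie around 0 and most long ones below.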

How the data were processed

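RNA-Seq of GFP-sorted chicken neural tube cells was analysed in 3 conditions with 2 libraries each. Per the labels, cDNA was linearly amplified, poly-A selected, randomly primed and sequenced in paired ends of 50 bp. The authors used Subread for alignment on galGal4 and featureCounts with Ensembl 85 genes, and their deposited table holds raw counts and exonic lengths. Program versions, the strand option and the handling of multimapping reads are not given in the sources used here. Further deposited tables hold the authors' own comparisons (fold changes, standard errors and p-values) and were not used.

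CPM was computed from each library's total (63637195 to 90460770 counts) and TPM from exonic lengths. Of 17108 genes, 13582 passed filterByExpr, and counts were scaled by TMM. One model with a mean per condition was fitted to 6 libraries with edgeR 4.0.16 in R 4.3.3 (quasi-likelihood, robust) with Benjamini-Hochberg adjustment over all genes tested, and calls were made at an adjusted p of at most 0.01. This test gives no standard error. Those printed divide the size of the log2 fold change by the square root of F. The p-values rest on a spread between replicate RNA samples that was pooled over genes and over the conditions. DESeq2 1.42.0, other scalings, filters, thresholds, choices of members and leaving out each library were alternatives. Tables and intersections were made in Python 3.11.15 with pandas 2.3.3.

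The members, tests and lists were chosen with earlier results of these data known. Genes to be named were the 10 most abundant, those at the limit of the list, the 10 largest called rises and falls on addition of HOXB8 without overlap between libraries, and the 5 largest rises and falls in MEK1ca versus pCIG. Since no names were at hand, at most 2 identifiers per direction are printed. Some of the others are given by position, and the rest only by chromosome or within a group. Gene lists and cell type markers that had been drawn up by symbol could not be applied. The galGal4 genome and RefSeq sequences matched to these identifiers are not used here, and no sequence is shown.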

Additional observations from a re-analysis of the deposited data

How the results depend on the processing

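With 2 libraries per condition, no exact test over samples can pass 0.05, and calls rest on a spread pooled over genes. The share of the 250 genes called on addition of HOXB8 was 14.8% and became 25.2% with DESeq2 and 32.8% at an adjusted p of 0.05 or less. It ranged from 7.60 to 19.2% when a library was left out. In MEK1ca versus pCIG, 4.0% became 6.4% with DESeq2, 9.20% at 0.05, and 0.800 and 0.400% with the genes chosen in pCIG replicate 1 or 2 and the other as control, and it ranged from 0.400 to 4.0% when a library was left out (the lowest without pCIG replicate 2, and 0.800% when either pCIG replicate 1 or MEK1ca replicate 1 was left out). In MEK1ca + HOXB8 versus pCIG, 12.4% became 21.2% with DESeq2, 31.2% at 0.05, 8.00% for the 250 genes highest by TPM, and 6.0 and 4.0% for the split choices, with a range from 4.0 to 12.4% when a library was left out. The shares of all genes tested moved too. With DESeq2 and at 0.05, 16.7% of all genes became 25.0 and 32.2% on addition of HOXB8. In MEK1ca versus pCIG, 6.16% became 11.4 and 12.8%, and in MEK1ca + HOXB8 versus pCIG 14.8% became 22.8 and 29.3%. With a single pCIG library as control the share of all genes also fell, as given above. The falls in the split choices are therefore not read as particular to the 250 genes. On addition of HOXB8, the share of all genes also fell without either MEK1ca library, as given above. The share of all genes was not taken without a MEK1ca + HOXB8 library, nor in MEK1ca versus pCIG without a MEK1ca library. The ranges of the shares without a library are therefore not read as particular to the 250 genes either. The median log2 fold change on addition of HOXB8 (-0.04) was 0.07 with library size alone and 0.06 with loess offsets. It ranged from -0.07 to -0.04 without a library. That of MEK1ca + HOXB8 versus pCIG (-0.10) was -0.02 and 0.00 with these scalings, and from -0.14 to -0.08 without a library. That of MEK1ca versus pCIG ranged from -0.09 to -0.02. The difference in share of counts (0.550 points) was 0.201 for the 100 highest genes, 0.129 for the 500 highest and 0.947 by TPM, and from 0.284 to 0.816 without a library. The change of ENSGALG00000008279 on addition of HOXB8 (-0.16, not called) was 0.01 without MEK1ca replicate 2, and from -0.32 to 0.01 when any library was left out. The log2 fold change of ENSGALG00000001000 in MEK1ca versus pCIG (0.79) had an adjusted p in edgeR above 0.01 with the 4 libraries compared alone (0.80, adjusted p = 0.0450) or without pCIG replicate 1 (0.82) or 2 (0.77), with the change as large. The cause of these differences was not tested. Another 86 values under these alternatives moved little. Shares and the percent of genes still among the highest moved by less than 1.5 times. Medians and the difference in share of counts moved by less than the spread between library pairs. Deviations of replicates with the same number had correlations across 13582 genes of 0.128, -0.113 and -0.027. The labels do not say whether the numbers pair the libraries, and these low correlations cannot settle it. With the replicate number as a block in the fit, the median log2 fold change of the 250 genes on addition of HOXB8 was -0.04. That of all genes tested was 0.02. The share of all genes called was not taken for this setting, so that its calls are not given. The alternatives without mitochondrial genes were not run, since these genes hold no count.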
